A study of Mus musculus with 18 samples.

Results

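The Polycomb repressive complex 1 and 2 genes described here are 37 genes named by symbol: the catalytic subunits, the alternative subunits and the accessory factors of PRC1 and PRC2. Their symbols were matched to the gene rows of the deposited counts, and each was found once among 54446 rows. Reads on these 37 genes made up between 0.664% and 0.735% of the gene reads of a library. Nascent RNA was captured from wild-type (WT) mouse embryonic stem (mES) cells and from mES cells labelled *Tet2*-/- (*Tet2*-KO), which lack by label the dioxygenase TET2. All dishes received 1 mM 5-ethynyl uridine (EU), a uridine analogue that enters RNA as it is made, for 10, 20 or 40 min, and each of the 6 groups of genotype and EU time had 3 replicate libraries, 18 in all. Both genotypes grew in serum with LIF, the GSK3 inhibitor CHIR99021 and the MEK inhibitor PD0325901, after passages on gelatin meant to remove feeder cells. The labels name no separate clones, so replicates are dishes of a WT line and of a *Tet2*-KO line, and p-values measure the spread between dishes.

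Polycomb group proteins keep developmental genes silent by modifying histones. PRC1 attaches ubiquitin to histone H2A through RING1 or RNF2, always together with a PCGF protein: canonical PRC1 carries CBX and PHC subunits and reads the mark of PRC2, whereas variant PRC1 carries RYBP or YAF2 and is recruited in other ways, for example by KDM2B at unmethylated CG-rich DNA. PRC2 methylates histone H3 through EZH1 or EZH2, held by EED, SUZ12 and RBBP4 or RBBP7, and occurs as PRC2.1 with PHF1, MTF2 or PHF19 and as PRC2.2 with JARID2 and AEBP2. In mES cells these complexes occupy the promoters of lineage genes that are switched on during differentiation.

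Libraries held 17931614 to 23069143 reads on genes and 44162 to 512186 reads on the ERCC spike-in, a set of synthetic RNAs added in proportion to total RNA. Of 8 mES cell marker genes, 7 had reads in every group, with a summed level of 2872 to 3053 reads per 1000000 gene reads (RPM) in WT and 2093 to 2210.1 in *Tet2*-KO, whereas *Sox2*, which lies inside *Sox2ot* on the same strand, was at 0 reads in all 18 libraries. The 7 differed unequally, and as share of gene reads 1 was called higher in *Tet2*-KO and 6 lower (24.6% and 32% of all tested genes). *Zfp42* had 33429 to 35265 reads per group in WT and 6246 to 6821 in *Tet2*-KO. *Pou5f1* had 5080 to 6750 and 4882 to 6214. Of 452 protein-coding genes that lie wholly inside a same-strand gene, 99.8% had 0 reads, so the counts cover whole gene spans, introns included. Over the span of *Tet2* itself the share was 589 to 741 RPM in WT and 530 to 643 in *Tet2*-KO, and a count over the whole span checks no deletion inside it. Summed reads of 6 fibroblast genes were 15.1 to 15.4 RPM in WT at 10 min against 5.25 to 6.402 in *Tet2*-KO. They were 2.52 to 3.05 against 11.0 to 12.2 at 20 min and 3.35 to 4.06 against 4.90 to 6.41 at 40 min. *Lum* and *Dcn* were at or near 0. Summed reads of 5 genes of the 2-cell-like state, mostly *Zscan4c*, *Zscan4d* and *Zscan4f*, were 14.4 to 26.7 RPM in WT and 1.53 to 4.44 in *Tet2*-KO and did not overlap at any EU time, whereas 6 primitive endoderm genes were at 14.1 to 20.6 and 14.1 to 17.3. The part of these markers in the differences between genotypes was not tested, and counts of calls over the mean of the 3 EU times are also given over 20 and 40 min alone. At 20 and at 40 min the fibroblast genes were higher in *Tet2*-KO, so those times still hold a difference in them. In bulk RNA, fewer cells making a transcript and less of it made per cell cannot be told apart.

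Transcription of the genes differed widely in level. Levels were taken as RPM per kb of gene span, as the mean over the 9 WT libraries. Among the 35 genes kept for tests, the highest was *Mtf2* (21.997), a Polycomb-like protein that binds CG-rich DNA. The lowest of the 35 was *Scml2* (0.0344), a sex comb on midleg homologue. *Phc1* (19.9), *Rbbp7* (18.7), *Eed* (15.1), *Epop* (14.1) and *Suz12* (12.0) followed *Mtf2* in WT. Over all EU times the libraries of *Mtf2* (19.6 to 23.9) overlapped those of *Phc1* (17.4 to 23.0) and *Rbbp7* (16.3 to 20.9). Within an EU time, *Mtf2* lay above *Rbbp7* at all 3 times and above *Phc1* at 10 and 20 min, with overlap only at 40 min (19.8 ± 0.31 and 19.6 ± 0.41, SD, n = 3). *Phc1* lay below *Rbbp7* at 10 min and above it at 20 and 40 min, so their order depended on the EU time. In *Tet2*-KO the order was *Mtf2* (26.2), *Rbbp7* (20.6), *Eed* (16.3) and *Phc1* (13.5), with no overlap between any 2 of them at any EU time. Alternative subunits lay far apart per kb of span. Their folds are geometric means of the ratios within each WT library, so they differ from ratios of the mean levels above. In WT, the level per kb of *Ezh2*, the main H3 methyltransferase of cycling cells, was 7.92-fold that of its paralogue *Ezh1*. *Rnf2* was 4.43-fold over *Ring1*, and *Mtf2* was 456-fold over *Phf19*, which had only 11 to 53 reads in a WT library. *Cbx7*, the main canonical CBX of mES cells, was 6.17-fold over *Cbx2*. *Cbx8* had 83 reads in all libraries together, 41 in WT and 42 in *Tet2*-KO. *Cbx6* had 2 reads and lies on the strand of *Npcd*, which overlaps it and held 1545 reads. *Cbx6* and *Cbx8* did not pass the filter on low counts, which left 35 of the 37 genes for tests.

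**Figure D1:**
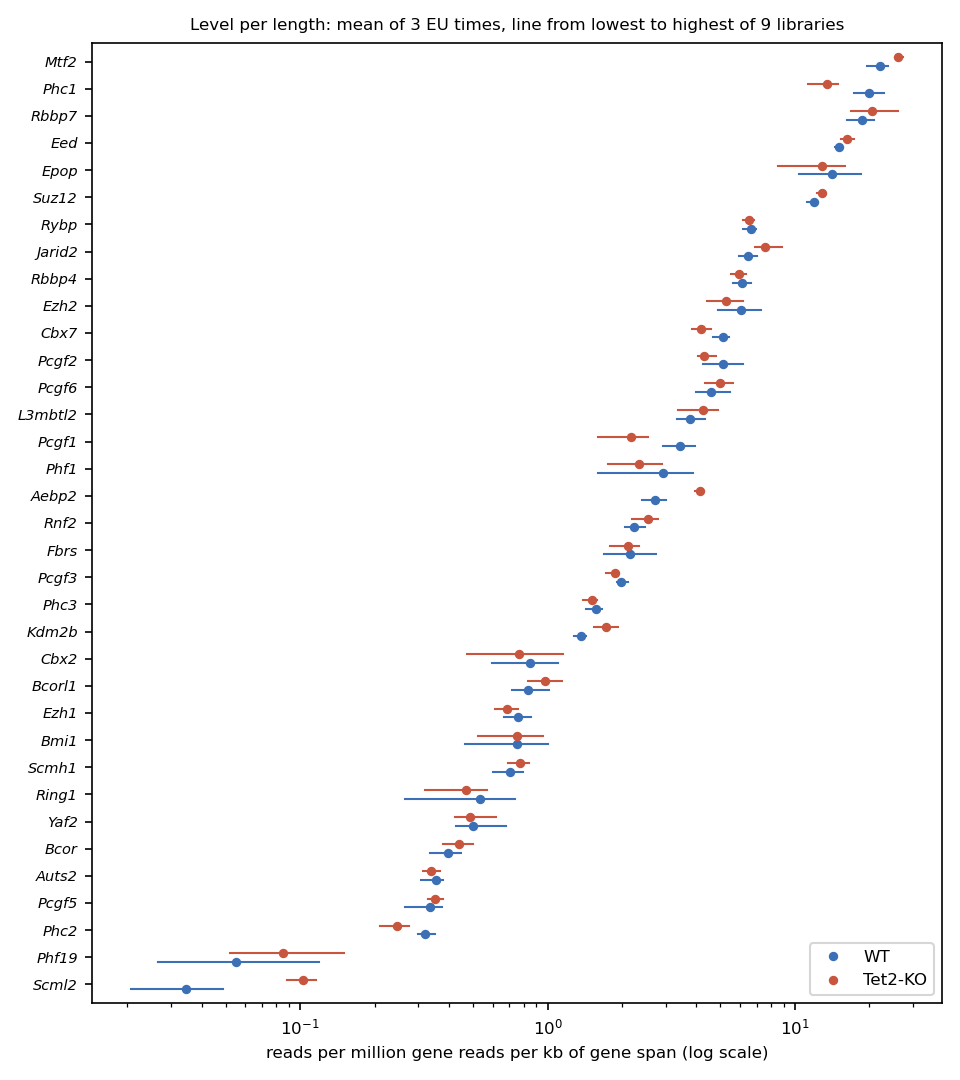
Level of the 35 tested Polycomb genes in RPM per kb of gene span (log scale), with points for the mean over 10, 20 and 40 min of EU and lines from the lowest to the highest of the 9 libraries of WT (blue) and *Tet2*-KO (red). *Mtf2* stood highest in both genotypes, and the *Scml2* lines of the genotypes do not overlap.

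The first comparison asked whether nascent RNA of the Polycomb genes differed between genotypes when calibrated by the spike-in. The study also used the spike-in, but turned levels into attomoles with a linear fit. Here reads were set against the sum of ERCC reads. Per ERCC read, averaged over the EU times, 34 of 35 genes were higher in *Tet2*-KO and 0 were lower, where 80.5% of all 19910 tested genes were called higher and 4.15% lower (the quasi-likelihood F test of edgeR, adjusted by Benjamini-Hochberg over all genes, threshold 0.05). The median log2 fold change of the Polycomb genes was 0.71, beside 0.70 for all genes tested. *Pcgf1*, the PCGF subunit of the KDM2B-containing PRC1, was the gene not called (log2 fold change 0.07 ± 0.09 (SE), adjusted p = 0.45 by the same test). *Phc1*, a polyhomeotic subunit of canonical PRC1, changed least among the called (0.17 ± 0.05, adjusted p = 6.8e-04), and *Scml2* changed most (2.31 ± 0.09, adjusted p = 4.7e-85). At 10, 20 and 40 min, 35, 29 and 32 genes were higher, with backgrounds of 79%, 53.7% and 68.2%, and 0 were lower at any time (backgrounds 2.1%, 4.86% and 2.84%). The reads of all members summed to 311 ± 26.9 per 1000 ERCC reads (SD, n = 3) in WT and 700.4 ± 42.1 in *Tet2*-KO at 10 min. At 20 min the sums were 1027 ± 62.1 and 1454 ± 86.9, and at 40 min 1663 ± 68.5 and 2812 ± 220.4. The median log2 fold changes at the 3 times were 1.104, 0.52 and 0.68, beside 0.96, 0.45 and 0.67 for all tested genes. Over 20 and 40 min alone, 32 genes were higher and 0 lower (backgrounds 70.2% and 4.73%), with *Ring1* and *Phc1* the genes that lost the call.

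Synthesis rates, taken as slopes of reads per 1000 ERCC reads on EU time, were larger in *Tet2*-KO for 33 of 35 genes. The median ratio was 1.57, beside 1.55 over all tested genes with positive slopes, of which 87.3% had the larger rate in *Tet2*-KO. The rate of *Scml2* was 0.0371 ± 0.0048 reads per 1000 ERCC reads per min (SE) in WT and 0.157 ± 0.0079 in *Tet2*-KO, a ratio of 4.22. *Phf19*, a gene of few reads, had rates of 0.00242 ± 0.00146 and 0.00743 ± 0.00209, a ratio of 3.07. The rates of *Aebp2*, *Pcgf5* and *Mtf2* had ratios of 2.11, 2.09 and 2.08. The exceptions were *Ring1*, with rates of 0.0201 ± 0.0013 and 0.0186 ± 0.0025, and *Pcgf1*, with 0.0730 ± 0.0050 and 0.0705 ± 0.0047, and for both the difference lay within the standard errors. The rates carry no test of their own, and their median ratio depended on the EU times used: the median log2 ratio was 0.65 over all times, 0.17 from 10 and 20 min, and 0.96 from 20 and 40 min.

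The second comparison took each gene as a share of gene reads, on which a difference shared by all genes drops out. Here and in the paragraphs by complex that follow, rises and falls are those of the share unless another scale is named. Averaged over the EU times, 16 of 35 Polycomb genes were higher in *Tet2*-KO (background 24.6%) and 11 were lower (background 32%) by edgeR's quasi-likelihood test, and 8 were not called. The median log2 fold change was -0.02, beside -0.04 for all tested genes. At 10 min 14 were higher and 9 lower (backgrounds 17.9% and 27.1%). At 20 min 11 were higher and 8 lower (17.6% and 20.7%), and at 40 min 12 were higher and 11 lower (18.9% and 19.6%). Over 20 and 40 min alone the counts were 14 and 10 (22.9% and 25.6%). The share of genes called in either direction was 77.1%, against 56.6% of all tested genes. Here and in the other counts, members and all tested genes were not matched for reads per gene, on which calls also depend. For 16 of the 27 called genes the 3 libraries of each genotype did not overlap at any EU time, 10 with *Tet2*-KO above (background 11.8%) and 6 with *Tet2*-KO below (13.9%). Those above were *Rnf2*, *Scml2*, *Kdm2b*, *Bcor*, *Bcorl1*, *Eed*, *Suz12*, *Mtf2*, *Jarid2* and *Aebp2*, and those below were *Pcgf1*, *Pcgf2*, *Cbx7*, *Phc1*, *Phc2* and *Ezh2*. By complex, the counts over 20 and 40 min were 1 higher and 2 lower of 6 PCGF genes, 2 and 3 of 7 in canonical PRC1, 4 and 2 of 8 in variant PRC1, 2 and 2 of 6 in the PRC2 core and 2 and 1 of 4 in PRC2.1, and both genes of PRC2.2 were higher. With the TMM scaling of edgeR or the size factors of DESeq2, which shifted the median of all genes by about 0.04, *Pcgf3*, *Auts2* and *Epop* were no longer called.

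**Figure D2:**
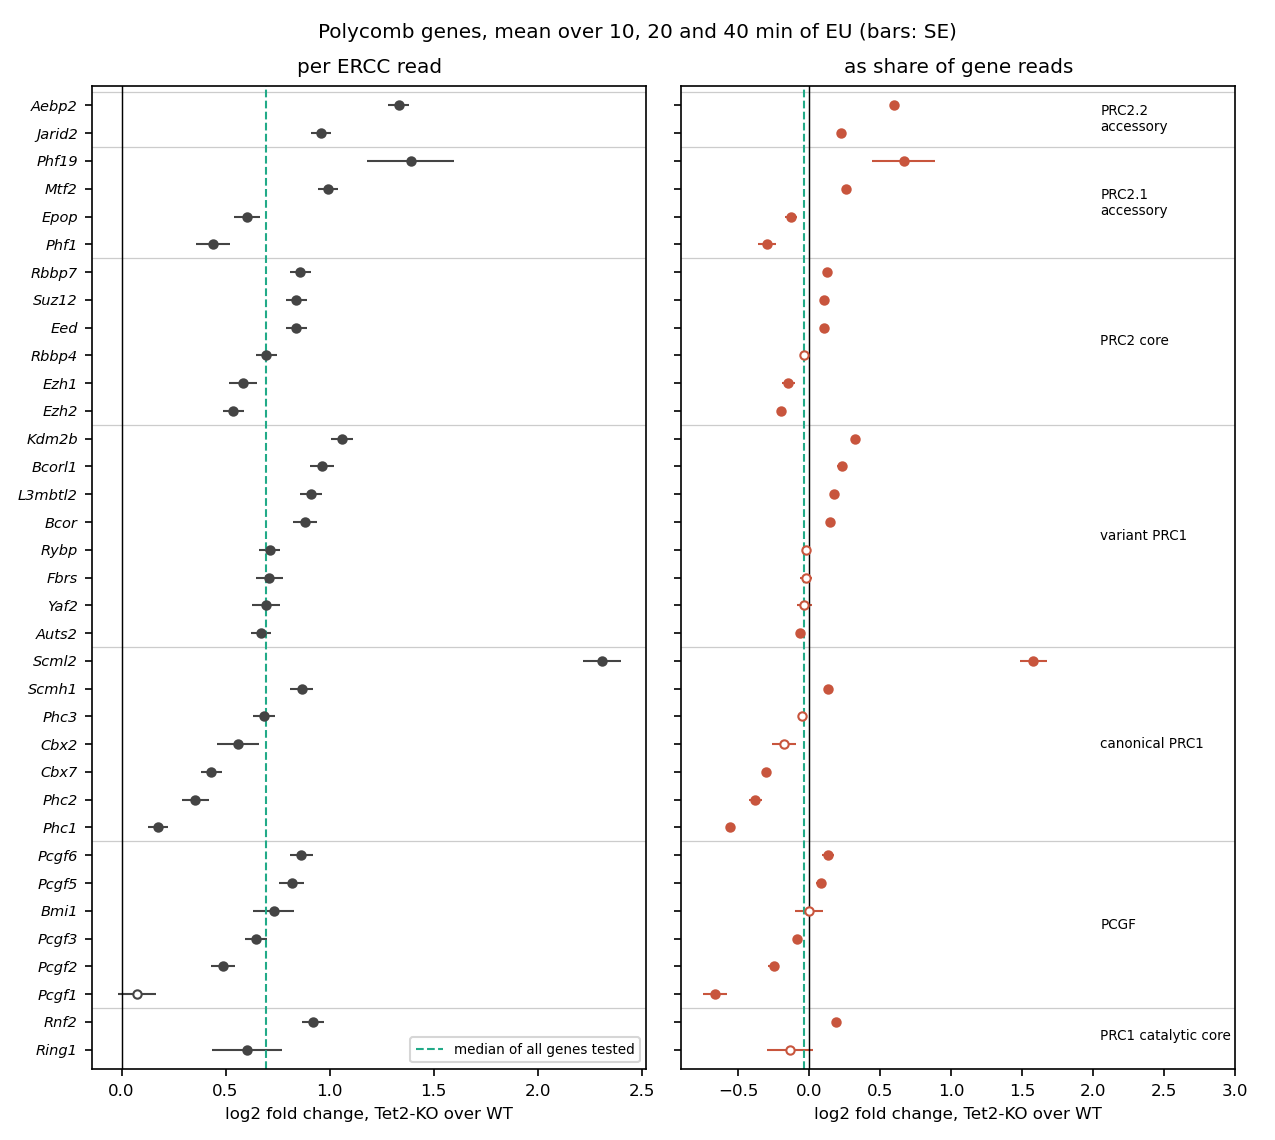
Log2 fold change of *Tet2*-KO over WT, averaged over 10, 20 and 40 min of EU, per ERCC read (left) and as share of gene reads (right) for the 35 tested Polycomb genes grouped by complex, with bars for the SE, filled points for adjusted p under 0.05 and a dashed line at the median of all 19910 tested genes. On the left 34 points are filled and lie right of 0, and on the right 16 lie above and 11 below 0 among the filled points.

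Of the PRC1 ligase genes, *Rnf2* rose and *Ring1* was not called. *Rnf2*, the main H2A ligase of mES cells, held 88.5, 90.0 and 89.3 RPM gene reads in WT at 10 min and 102, 99.7 and 94.5 in *Tet2*-KO. At 40 min it held 100.2, 99.2 and 106 in WT and 113, 117 and 114 in *Tet2*-KO. The 3 *Tet2*-KO libraries stood above the 3 WT libraries at each time, and the share was 1.14-fold higher (log2 0.19 ± 0.02 (SE), adjusted p = 2.9e-08, edgeR). *Ring1*, the paralogue of *Rnf2*, held only 1.03 to 2.86 RPM in WT and 1.25 to 2.22 in *Tet2*-KO, with 23 to 66 reads a library, and the genotypes overlapped at 10 and 20 min. Its log2 fold change was -0.13 ± 0.16 and was not called (adjusted p = 0.51).

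Of the 6 PCGF genes, which define the kinds of PRC1, 2 were higher, 3 were lower and *Bmi1* was not called. *Pcgf1* (chr6:83077869-83080855, plus strand, a span of 2.99 kb) showed the largest fall of all members. It held 8.79, 9.48 and 10.5 RPM in WT and 4.76, 7.10 and 6.93 in *Tet2*-KO at 10 min. At 20 min the values were 9.72, 9.51 and 11.6 against 6.19, 6.99 and 6.01, and at 40 min 10.5, 10.6 and 11.7 against 5.91, 7.12 and 7.58. No *Tet2*-KO library reached the lowest WT library, and the log2 fold change was -0.66 ± 0.08 (adjusted p = 2.3e-08, edgeR). *Pcgf2* (Mel18), with *Bmi1* the PCGF partner of canonical PRC1, fell by 0.25 ± 0.04 (adjusted p = 1.5e-06). *Pcgf3* fell by 0.088 ± 0.024 (adjusted p = 2.6e-03) and was not called over 20 and 40 min alone (adjusted p = 0.053, edgeR), and *Pcgf5*, its paralogue, was higher by 0.083 ± 0.034 (adjusted p = 0.035). The call of *Pcgf5* was lost without replicate 1 of WT at 20 min, replicate 2 of WT at 40 min, or replicate 2 at 10 min, 3 at 20 min or 1 at 40 min of *Tet2*-KO (adjusted p = 0.069 to 0.087, edgeR), and with no filter on low counts (0.087). *Bmi1* itself was low, at 4.44 to 9.67 RPM in WT and 5.03 to 9.20 in *Tet2*-KO. *Pcgf6*, whose PRC1 contains L3MBTL2, MGA and E2F6, was higher by 0.13 ± 0.04 (adjusted p = 8.4e-03), and over 20 and 40 min alone it was 0.05 and not called.

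Canonical PRC1 held the member that rose farthest and, after *Pcgf1*, the member that fell farthest. *Scml2* (chrX:161117193-161258213, plus strand, 141 kb) held 3.68, 5.79 and 2.92 RPM in WT and 13.03, 14.1 and 16.3 in *Tet2*-KO at 10 min. At 20 min the values were 5.75, 4.65 and 4.52 against 14.6, 12.5 and 13.8, and at 40 min 5.16, 4.36 and 6.90 against 15.4, 16.02 and 14.4. The 9 *Tet2*-KO libraries all lay above the 9 WT libraries, and the share was 2.99-fold higher (log2 1.58 ± 0.10, adjusted p = 8.7e-16, edgeR). *Phc1* (chr6:122317731-122340561, minus strand, 22.8 kb) went the other way. Its values were 398, 421 and 398 in WT against 265, 258 and 267 in *Tet2*-KO at 10 min, and 526, 494 and 501 against 322, 326 and 320 at 20 min. At 40 min they were 455, 450.1 and 437 against 339, 337 and 340.3. The highest *Tet2*-KO library lay below the lowest WT library, at a log2 fold change of -0.56 ± 0.02 (adjusted p = 1.7e-25). *Phc2*, its paralogue, held 29.4 to 34.4 RPM in WT (median 30.6) and 20.6 to 27.1 in *Tet2*-KO (median 24.7), with no overlap (log2 -0.38 ± 0.04, adjusted p = 7.3e-09). *Phc3*, the third polyhomeotic gene, was not called (-0.05 ± 0.02, adjusted p = 0.071). *Cbx7* ranged from 259 to 299.6 in WT and from 213 to 253 in *Tet2*-KO, again without overlap (log2 -0.30 ± 0.02, adjusted p = 2.3e-17). *Cbx2* was not called (-0.18 ± 0.09, adjusted p = 0.083), and *Scmh1*, a sex comb on midleg homologue like *Scml2*, was higher by 0.13 ± 0.03 (adjusted p = 4.7e-05). Of the 7 tested genes of canonical PRC1, 2 were higher, 3 were lower and 2 were not called.

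**Figure D3:**
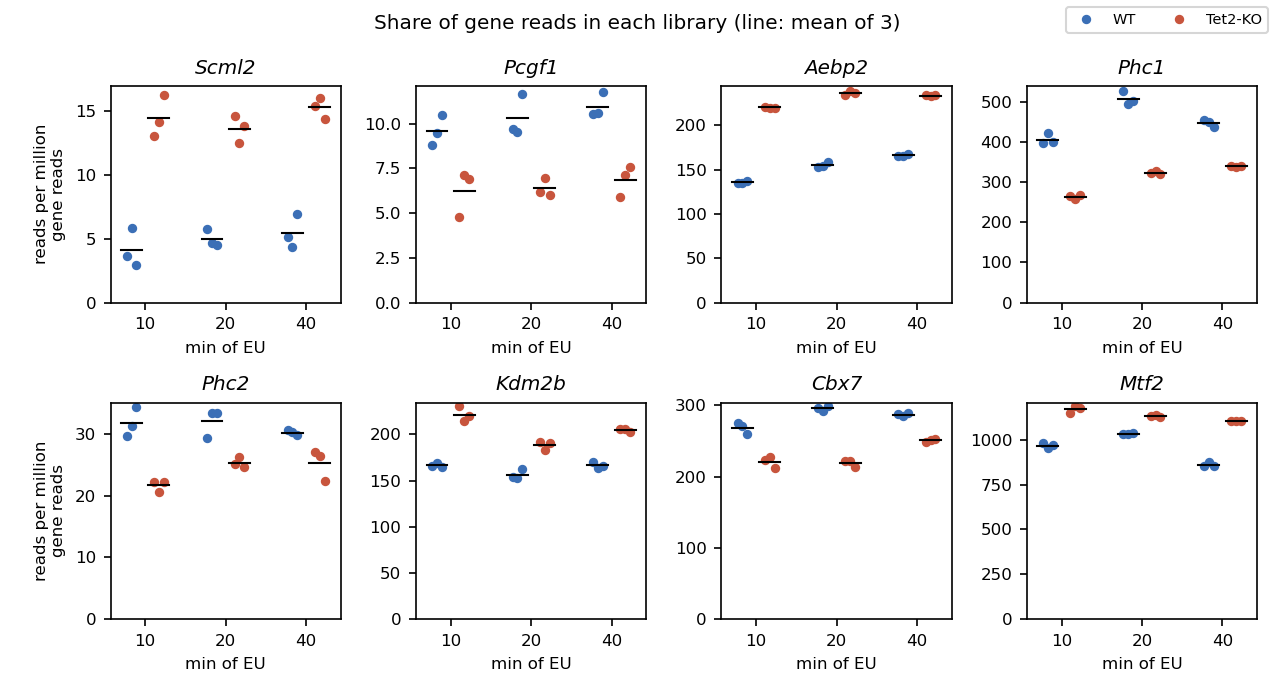
Reads per 1000000 gene reads (RPM) in each library at 10, 20 and 40 min of EU for the 8 Polycomb genes with the largest changes by the rule for named genes, with WT in blue, *Tet2*-KO in red and lines at the mean of 3 libraries, on axes that start at 0. The rule took only genes whose genotypes did not overlap at any EU time. *Tet2*-KO lies above WT for *Scml2*, *Aebp2*, *Kdm2b* and *Mtf2* and below for the others.

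Among the 8 subunits of variant PRC1, 4 rose, *Auts2* fell and 3 were not called. *Kdm2b*, the CG-binding recruiter, held 153 to 170.1 RPM in WT (median 165) and 183 to 231 in *Tet2*-KO (median 205), and was 1.25-fold higher (log2 0.33 ± 0.02, adjusted p = 7.0e-17, edgeR). Its complex partners *Bcor* and *Bcorl1*, on chromosome X, were higher by 0.15 ± 0.03 (adjusted p = 8.0e-05) and 0.23 ± 0.03 (adjusted p = 1.0e-07). *Pcgf1*, which joins the same complex, was the member that fell farthest, so the subunits of that complex did not share a direction. *L3mbtl2*, of the PCGF6 complex, was higher by 0.17 ± 0.03 (adjusted p = 9.7e-07). *Auts2*, of the PCGF3 and PCGF5 complexes, fell by 0.064 ± 0.016 (adjusted p = 8.6e-04). *Rybp*, *Yaf2* and *Fbrs* had log2 fold changes of -0.02, -0.04 and -0.02 and were not called. Over 20 and 40 min alone *Rybp* was lower by the same test (log2 -0.085, adjusted p = 3.2e-05).

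Of the 6 genes of the PRC2 core, both catalytic genes fell, *Eed*, *Suz12* and *Rbbp7* rose and *Rbbp4* was not called. *Ezh2* (chr6:47530139-47595341, minus strand) held 324, 321 and 318 RPM in WT and 288, 287 and 295 in *Tet2*-KO at 10 min. At 40 min the values were 478, 478 and 466 against 393, 390 and 403. The *Tet2*-KO libraries were the lower at every EU time (log2 -0.20 ± 0.01, adjusted p = 2.5e-14, edgeR). *Ezh1* fell by 0.15 ± 0.05 (adjusted p = 6.4e-03), with 23.7 to 30.3 RPM in WT and 21.7 to 26.9 in *Tet2*-KO, and was not called over 20 and 40 min alone (-0.07). *Eed*, which binds methylated H3, held 383 to 414 in WT (median 393) and 403 to 457 in *Tet2*-KO (median 432). *Suz12*, the scaffold, held 458 to 510.3 (median 501) and 503 to 546 (median 534). Pooled over the EU times these ranges overlapped, but within each time the *Tet2*-KO libraries were all above the WT libraries for both genes, at log2 fold changes of 0.11 ± 0.01 (adjusted p = 5.7e-08) and 0.11 ± 0.01 (adjusted p = 1.3e-09). *Rbbp7* was higher by 0.13 ± 0.02 (adjusted p = 4.0e-05), though not called over 20 and 40 min alone (0.06), and its paralogue *Rbbp4* was not called (-0.04 ± 0.02, adjusted p = 0.13). *Rbbp4* was lower over 20 and 40 min alone (-0.066, adjusted p = 0.040, edgeR), as it was without replicate 1 of *Tet2*-KO at 10 min (-0.055, adjusted p = 0.023).

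Both accessory genes of PRC2.2 rose. *Aebp2* (chr6:140622663-140678472, plus strand, 55.8 kb) held 135.1, 135.1 and 137 RPM in WT and 221, 219.8 and 219.8 in *Tet2*-KO at 10 min. At 20 min the values were 153, 154 and 159 against 234, 239 and 236, and at 40 min 165, 165 and 168 against 234, 233 and 234. The libraries of a genotype lay within a few percent of each other and far from those of the other, and the share was 1.51-fold higher (log2 0.60 ± 0.02, adjusted p = 3.7e-26, edgeR). *Jarid2*, the member with the most reads, held 1147 to 1352 RPM in WT (median 1248) and 1327 to 1697 in *Tet2*-KO (median 1362), and was higher by 0.22 ± 0.01 (adjusted p = 4.5e-18). The accessory genes of PRC2.1 divided, 2 rising and 2 falling. *Mtf2* held 851 to 1035 in WT (median 969.5) and 1102 to 1190.2 in *Tet2*-KO (median 1133), without overlap (log2 0.26 ± 0.01, adjusted p = 1.1e-20). *Phf19*, another Polycomb-like gene, was at 0.538 to 2.42 and 1.06 to 3.05, with a log2 fold change of 0.66 ± 0.22 (adjusted p = 0.012, edgeR). Its libraries overlapped at 10 and 20 min, and at 40 min *Tet2*-KO lay above WT. *Phf1* fell by 0.29 ± 0.06 (adjusted p = 1.6e-04) and *Epop*, which links PRC2 to elongin, fell by 0.13 ± 0.04 (adjusted p = 0.011), a call lost over 20 and 40 min alone (adjusted p = 0.094, edgeR).

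Promoter sequence was read from RefSeq (GRCm38.p6), which held a window for 31 of the 37 genes. The 250 bases before the start held between 1 and 45 CG dinucleotides (median 20), beside a median of 6 over 32851 windows of the same length. Among the genes whose genotypes did not overlap at any EU time, RefSeq and GENCODE placed the start alike and the window lay in no other gene for *Suz12*, *Mtf2*, *Bcor* and *Bcorl1*, which rose, and for *Phc2*, which fell. The sequences of *Suz12*, *Mtf2* and *Phc2* are printed to show the range of CG content, and those of *Bcor* and *Bcorl1*, with 16 and 18 CG dinucleotides, lie within it. Capitals mark each CG dinucleotide (letters CG, a palindrome and so the same on both strands), and each is written 5′ to 3′ on the plus strand.
Suz12, chr11:79992856-79993105: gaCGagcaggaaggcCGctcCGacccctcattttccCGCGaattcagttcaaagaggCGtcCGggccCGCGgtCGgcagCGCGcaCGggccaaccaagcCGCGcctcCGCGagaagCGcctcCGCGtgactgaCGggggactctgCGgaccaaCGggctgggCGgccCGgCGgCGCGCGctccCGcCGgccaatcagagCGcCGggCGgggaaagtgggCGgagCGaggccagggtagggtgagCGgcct
Mtf2, chr5:108065424-108065673: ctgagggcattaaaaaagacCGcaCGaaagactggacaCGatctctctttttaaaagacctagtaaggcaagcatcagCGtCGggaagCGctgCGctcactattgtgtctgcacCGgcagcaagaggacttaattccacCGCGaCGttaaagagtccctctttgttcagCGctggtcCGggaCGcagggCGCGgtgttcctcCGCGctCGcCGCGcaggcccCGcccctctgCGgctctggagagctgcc
Phc2, chr4:128654452-128654701: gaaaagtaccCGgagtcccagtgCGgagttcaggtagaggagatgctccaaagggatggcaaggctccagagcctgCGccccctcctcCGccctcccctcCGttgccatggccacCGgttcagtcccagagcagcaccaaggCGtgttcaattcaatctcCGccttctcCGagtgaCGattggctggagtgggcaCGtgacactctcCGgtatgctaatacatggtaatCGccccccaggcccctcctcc
The *Suz12* window held 37 CG dinucleotides, a number that 2.2% of all windows reach. The *Mtf2* window held 23 and the *Phc2* window 13, numbers reached by 13.3% and 31.5%. With 1 gene that fell, these windows give no comparison of directions.

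Several of the genes lay in stretches where neighbouring genes also differed between genotypes. On chromosome 6 between 80 and 140 Mb, 70% of 520 tested genes had a lower share in *Tet2*-KO and the median log2 fold change was -0.49. From 0 to 80 Mb of the same chromosome the median of 415 genes was 0.01, and from 140 to 150 Mb the median of 75 genes was 0.38, with 53.3% higher. Of 254 windows of 10 Mb with at least 20 tested genes, 10 had a median below -0.3, of which 6 lay on chromosome 6. *Pcgf1* (-0.66) and *Phc1* (-0.56), the members with the largest falls, lay in the first of these stretches, where the tested protein-coding genes within 5 Mb of them had medians of -0.55 (82 genes) and -0.46 (106 genes). Both members lay within the quartiles of their neighbours. *Rybp* lay in the same stretch, with neighbours at -0.41 (20 genes) and its own value at -0.02, also within their quartiles (-0.60 to 0.06). *Aebp2* lay in the last stretch, with neighbours at 0.18 (44 genes) and its own value 0.42 above that, over their upper quartile (0.49). The 5 Mb before it lie mostly in the stretch from 80 to 140 Mb. Among the 75 tested genes from 140 to 150 Mb, its value of 0.60 lay within the quartiles (-0.17 to 0.62). *Ezh2* lay outside, with neighbours at 0.15 (43 genes) and its own value at -0.20, within their quartiles (-0.35 to 0.45). *Scml2* (1.58) had neighbours at 0.10, and *Phc2*, *Cbx7* and *Kdm2b* had neighbours between -0.06 and 0.00. Without the 5 tested genes on chromosome 6, 15 of 30 were higher and 8 were lower, with a median of 0.04, where 24.9% of all tested genes off that chromosome were higher and 31.1% lower. The counts over 20 and 40 min alone were 13 and 6 (23.1% and 24.7%). The 4 tested members on chromosome X, *Scml2*, *Bcor*, *Bcorl1* and *Rbbp7*, were all higher, where 30.6% of 643 tested genes on that chromosome were higher and 25.3% lower, and over 20 and 40 min alone 3 were higher (28.1% and 19.8%). Whether the stretches on chromosome 6 set the values of *Pcgf1*, *Phc1* and *Aebp2* was not tested.

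**Figure D4:**
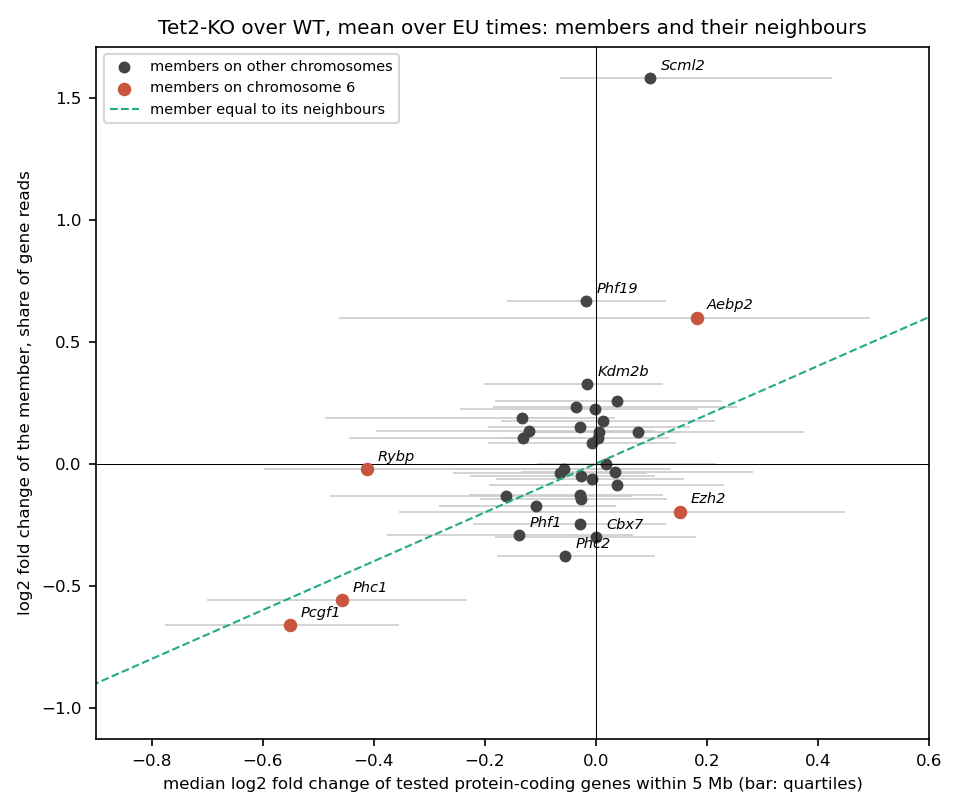
Log2 fold change of each tested Polycomb gene as share of gene reads (vertical) against the median of the tested protein-coding genes within 5 Mb of it (horizontal, with bars for the quartiles), with members on chromosome 6 in red and a dashed line where a member equals its neighbours. *Pcgf1* and *Phc1* lie near the line at the lower left, and *Scml2* lies 1.48 above its neighbours.

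The third comparison asked whether the genotype difference changed with EU time. As share of gene reads, 9 genes had a difference that changed from 10 to 40 min by edgeR's quasi-likelihood test, 3 rising (background 5.89%) and 6 falling (background 3.36%). Per ERCC read the difference fell for 17 genes and rose for 0 (backgrounds 19.3% and 0.552%). On the share scale with TMM the split was 2 rising and 10 falling, and with DESeq2 2 and 11. *Pcgf5*, the PCGF gene of another variant PRC1, held 41.3, 41.6 and 41.1 RPM in WT and 38.5, 41.1 and 38.1 in *Tet2*-KO at 10 min. At 40 min it held 31.9, 29.8 and 31.3 against 38.5, 37.4 and 37.0, so the genotypes overlapped at 10 min and *Tet2*-KO was above at 40 min. The change was 0.36 ± 0.08 on the log2 scale (adjusted p = 4.6e-03). *Rybp* changed in the other direction, from 380, 375 and 365 against 402, 399 and 403 at 10 min to 409, 410.1 and 412 against 369, 362 and 371 at 40 min. *Tet2*-KO was thus above all WT libraries at 10 min and below all of them at 40 min, a change of -0.26 ± 0.03 (adjusted p = 6.8e-07). *Fbrs*, a PRC1 partner related to AUTS2, held 21.2, 22.7 and 22.5 in WT against 24.4, 22.8 and 22.4 at 10 min, and 32.1, 34.5 and 31.5 against 28.1, 27.2 and 26.6 at 40 min. *Rbbp7*, a histone-binding WD40 protein gene, held 390.1, 389 and 352 against 419, 446 and 487 at 10 min, and 304, 325 and 322 against 317, 335 and 323 at 40 min. *Fbrs* thus overlapped at 10 min with *Tet2*-KO below at 40 min, and *Rbbp7* was above in *Tet2*-KO at 10 min and overlapped at 40 min. The difference of *Phc1* narrowed by 0.22 ± 0.04 (adjusted p = 1.2e-04), and that of *Aebp2* narrowed, with a change of -0.21 ± 0.04 (adjusted p = 3.7e-04). *Jarid2* changed by -0.11 ± 0.03 (adjusted p = 0.012), *Rbbp7* by -0.22 ± 0.06 (adjusted p = 0.015), *Fbrs* by -0.33 ± 0.10 (adjusted p = 0.031), *Ezh2* by -0.11 ± 0.03 (adjusted p = 0.027) and *Mtf2* by 0.084 ± 0.025 (adjusted p = 0.031). The calls of *Rbbp7*, *Fbrs*, *Ezh2* and *Mtf2* were lost when single libraries of 10 or 40 min were left out. The change of *Mtf2* was 0.027 with TMM (adjusted p = 0.62) and 0.020 with DESeq2 (adjusted p = 0.71) and was then not called, and with no filter on low counts *Fbrs*, *Ezh2* and *Mtf2* were not called (adjusted p = 0.075, 0.073 and 0.095, edgeR). Without replicate 2 of WT at 40 min, 3 genes were falling in place of 6. At 10 min the fibroblast genes were at 15.1 to 15.4 RPM in WT, and their part in these changes was not tested.

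Per ERCC read all 35 tested genes were higher at 40 than at 10 min in each genotype, where 96.7% of all genes were higher in WT and 94.7% in *Tet2*-KO by the same edgeR test. The share of many Polycomb genes moved with EU time as well. In WT, 17 were higher at 40 than at 10 min (background 16.1%) and 11 were lower (29.5%). In *Tet2*-KO the counts were 14 (16.5%) and 11 (20%), and with TMM scaling 14 and 7. The median log2 change of the members was 0.13 in WT and 0.04 in *Tet2*-KO, beside -0.14 and -0.06 for all tested genes. *Ezh2* gained 0.56 ± 0.02 in WT and 0.45 ± 0.02 in *Tet2*-KO, and *Epop* gained 0.74 ± 0.07 and 0.72 ± 0.08 (adjusted p at most 2.4e-09 for each by edgeR). *Phf1* gained 0.94 ± 0.11 and 0.57 ± 0.11. *Bcorl1* fell by 0.40 ± 0.05 in WT and by 0.38 ± 0.05 in *Tet2*-KO, and *Bcor* fell by 0.30 ± 0.05 and 0.34 ± 0.05. Of the 15 tested members that span under 30 kb, a limit chosen after the values were seen, 10 were higher and 3 lower at 40 min in WT. Of the 20 longer members, 7 were higher and 8 lower. In *Tet2*-KO the counts were 7 and 3 of the shorter and 7 and 8 of the longer members. Among tested protein-coding genes in WT, 19.3% of the shorter and 19.4% of the longer genes were higher, and 22.4% and 40.7% were lower. In *Tet2*-KO, 18.9% of the shorter and 20.8% of the longer protein-coding genes were higher, and 13.8% and 30.4% were lower. Over the 35 members the WT change and the gene span had a Spearman correlation of -0.43, and over 15158 tested protein-coding genes of -0.14, across genes that share the same libraries.

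The fourth comparison set alternative subunits against each other within a library, as the ratio of their reads, which needs no scale. Of 12 pairs, 4 differed between genotypes after Benjamini-Hochberg adjustment over the pairs (two-sided exact permutation test that swapped genotypes inside each EU time in all 8000 ways, smallest p 0.00025). The ratio of *Pcgf6* to *Pcgf1* was 1.74-fold higher in *Tet2*-KO (log2 difference 0.80, adjusted p = 0.003, exact permutation test), and the genotypes did not overlap at any EU time. Its mean log2 ratio was 2.87 ± 0.11 (SD, n = 3) in WT and 3.80 ± 0.16 in *Tet2*-KO at 10 min. *Pcgf5* over *Pcgf3* was higher by 0.17 and *Rbbp7* over *Rbbp4* by 0.17, and *Phc1* over *Phc2* was lower, at -0.18 (adjusted p = 0.013 for each by the exact permutation test). For these 3 pairs the libraries overlapped at 2 of the 3 EU times. As share of gene reads *Pcgf6* changed by 0.13 and *Pcgf1* by -0.66 on the log2 scale. *Pcgf1* and *Phc1* lie in the stretch of chromosome 6 described above, whose part in these ratios was not tested. With 20 and 40 min alone, 11 of the 12 pairs were called, all but *Rybp* over *Yaf2* (adjusted p = 0.03 to 0.044, exact permutation test in all 400 ways, smallest p 0.005). *Pcgf5* over *Pcgf3* stood apart at 40 min, with -1.54 ± 0.04 in WT and -1.14 ± 0.06 in *Tet2*-KO.

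Averaged over the 3 EU times the other pairs were not called. The ratio of the H2A ligases, *Rnf2* over *Ring1*, was higher by 0.31 and not called (adjusted p = 0.20, exact permutation test), with WT libraries from 5.08 to 6.44 and *Tet2*-KO libraries from 5.49 to 6.36 on the log2 scale. That of the methyltransferases, *Ezh2* over *Ezh1*, differed by -0.05 (adjusted p = 0.45). *Bmi1* over *Pcgf2* differed by 0.25 (adjusted p = 0.092) and *Mtf2* over *Phf19* by -0.47 (adjusted p = 0.13). *Jarid2* over *Mtf2*, which sets PRC2.2 against PRC2.1, differed by -0.03 (adjusted p = 0.28), *Bcor* over *Bcorl1* by -0.08, *Rybp* over *Yaf2* by 0.01 and *Cbx7* over *Cbx2* by -0.13. Over 20 and 40 min alone, where these pairs other than *Rybp* over *Yaf2* were called, *Rnf2* over *Ring1* differed by 0.61, *Ezh2* over *Ezh1* by -0.15, *Mtf2* over *Phf19* by -0.56 and *Cbx7* over *Cbx2* by -0.30.

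**Figure D5:**
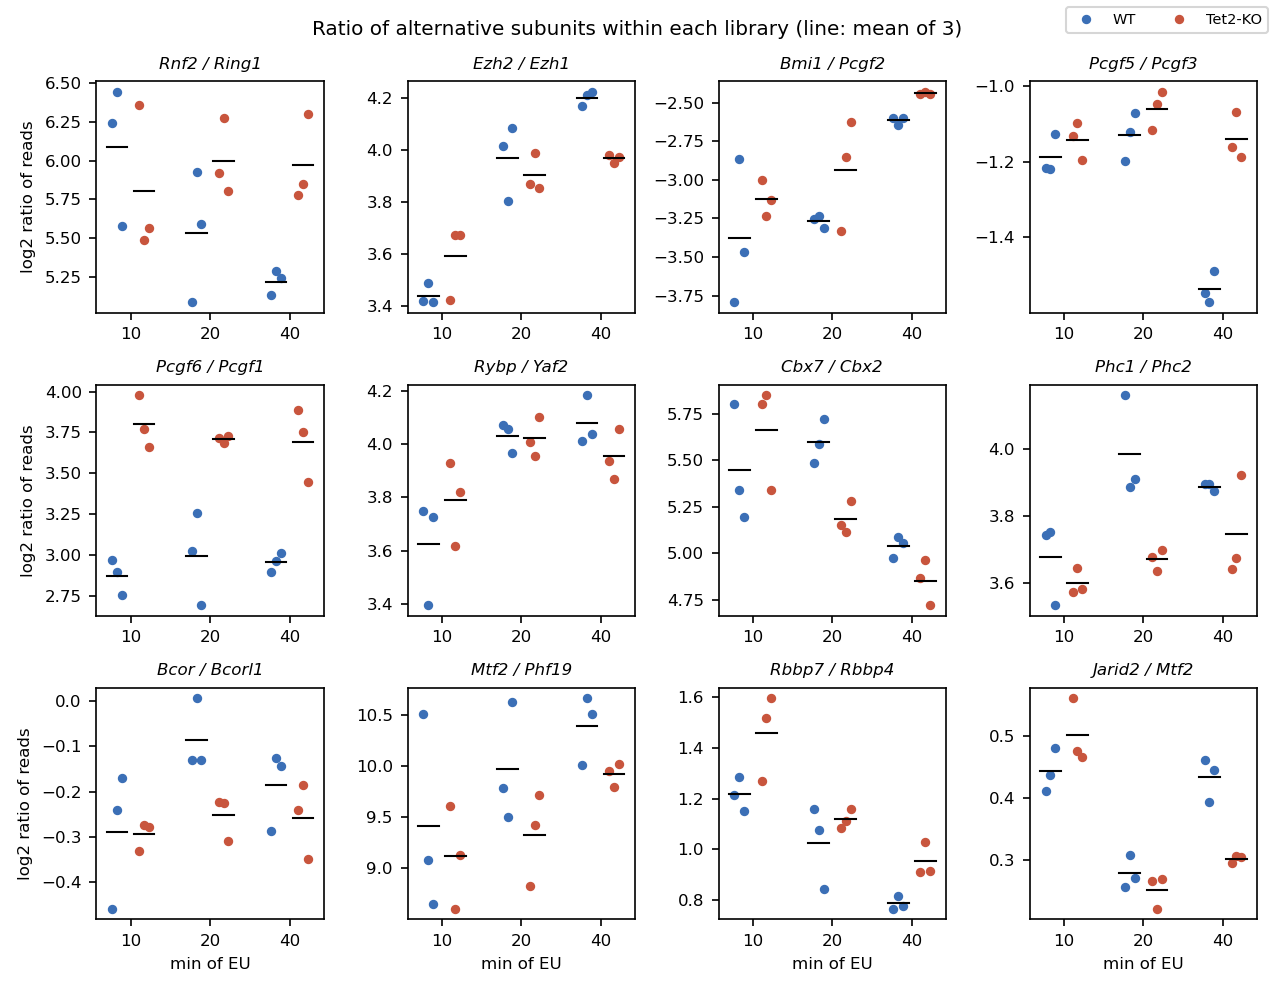
Log2 ratio of the reads of 2 alternative subunits in each library for 12 pairs at 10, 20 and 40 min of EU, with WT in blue, *Tet2*-KO in red and lines at the mean of 3 libraries, on axes that differ between panels. The *Pcgf6* to *Pcgf1* ratio lies higher in *Tet2*-KO at each time, and the other pairs overlap at 1 or more of the times.

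Genes that work with or against Polycomb were measured in the same libraries. Of 14 partners of variant PRC1 that are not members, 6 were higher, 5 were lower and 3 were not called as share of gene reads (backgrounds 24.6% and 32%), with a median log2 fold change of -0.01. The counts were 5 and 5 over 20 and 40 min alone, and the other 3 lists, given next, had equal counts over both sets of EU times. *Wdr5* was higher by 0.39 ± 0.02, and *Dcaf7*, which bridges PRC1 and AUTS2, fell by 0.31 ± 0.03. Of 8 genes of enzymes that remove Polycomb marks and their cofactors, 3 were higher and 5 lower, with a median of -0.15. The share of *Kdm6a*, an H3 demethylase, was higher by 0.18 ± 0.02. The shares of the H2A deubiquitinase genes *Usp16*, *Usp21*, *Mysm1* and *Bap1* fell by 0.15 ± 0.03, 0.37 ± 0.07, 0.16 ± 0.02 and 0.14 ± 0.04. Per ERCC read all 8 genes of this list were called higher and 0 lower (backgrounds 80.5% and 4.15%). Of 9 genes of the trithorax methyltransferase complexes, which oppose Polycomb, 6 were higher and *Ash2l* was lower, with a median of 0.21. *Kmt2b*, *Kmt2c* and *Dpy30* were higher by 0.30 ± 0.02, 0.27 ± 0.01 and 0.31 ± 0.04. Per ERCC read all 14 partners and all 9 trithorax genes were called higher as well, with the same backgrounds.

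Of 16 developmental genes that Polycomb is known to silence in mES cells, 9 passed the filter on low counts. On the share scale *Cdkn2a* was higher, 4 were lower and 4 were not called (backgrounds 24.6% higher and 32% lower). *Cdkn2a* was higher by 0.58 ± 0.07. *Eomes* fell by 0.66 ± 0.10 and *Gata4* by 0.42 ± 0.10. *Olig2* had 62 to 98 reads in the WT libraries and 0 to 3 in the *Tet2*-KO libraries, and *Pax3* had 5 to 23 and 0 to 6. Both passed the filter only through their WT reads, which favours a lower call, so the count of lower genes gives no direction for Polycomb targets. The 7 genes that did not pass the filter, among them *Hoxa9*, *Hoxb1* and *Hoxd13*, were not tested.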

How the data were processed

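The files hold raw read counts per gene for 18 libraries, which the authors deposited without normalization. Per the labels and the study's methods, the authors trimmed reads with Trimmomatic 0.39, aligned them with HISAT2 2.2.1 to mm10 and counted them with HTSeq 0.12.4 on GENCODE M19. Feature type and overlap mode are not given in the sources used here. Nested genes showed that spans were counted by strand. Rows that name no gene held 20.9% to 24.9% of the counts and were left out.

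Symbols and positions came from GENCODE M21 on the same build, and promoters from RefSeq (GRCm38.p6). The members and lists were chosen with earlier results of these data known. Genes were kept by filterByExpr of edgeR 4.0.16 (R 4.3.3) with a minimum count of 10, which left 19910. All 18 libraries entered 1 fit with a mean per group, tested by the quasi-likelihood F test of edgeR, with Benjamini-Hochberg adjusted p under 0.05 called. Library size was the sum of ERCC reads (per ERCC read) or of gene reads (share of gene reads). Standard errors are the log2 fold change over the square root of F. The script was tested on simulated data. No library had a column that was left unused.

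The rule for genes named with full values took the 6 catalytic and core genes (*Ring1*, *Rnf2*, *Ezh1*, *Ezh2*, *Eed*, *Suz12*), the 8 genes with the largest share change among those called without overlap at any EU time, and the 4 whose difference changed most from 10 to 40 min among those called. Other members are given by role, and of the pathway lists the second criterion named *Olig2*, *Pax3*, *Gata4*, *Wdr5*, *Usp21* and *Dpy30*, while the others were named after their values were seen. Same-numbered libraries did not deviate together (45 correlations of -0.11 to 0.11), so replicate numbers do not pair them. Alternatives were TMM, DESeq2 1.42.0, other filters, other ERCC sets, other EU times, a replicate block and leaving out each library. Coordinates are 1-based on mm10. Depth limits low genes, and PCR reads carried no molecular identifiers, so counts are not counts of molecules.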

Additional observations from a re-analysis of the deposited data

Results flagged for a closer look

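For 9 Polycomb genes the difference between genotypes, as share of gene reads, was not the same at 10 and at 40 min of EU, by a test of that change itself (the quasi-likelihood F test of edgeR, adjusted by Benjamini-Hochberg over all 19910 genes). The change of the log2 fold change of *Tet2*-KO over WT was 0.36 for *Pcgf5*, 0.22 for *Phc1* and 0.084 for *Mtf2*, which moved up. With TMM and DESeq2 the change of *Mtf2* was 0.027 and 0.020 and was not called. It was -0.26 for *Rybp*, -0.33 for *Fbrs*, -0.11 for *Ezh2*, -0.22 for *Rbbp7*, -0.11 for *Jarid2* and -0.21 for *Aebp2*, which moved down. Among all tested genes 5.89% moved up and 3.36% moved down. *Rybp* had *Tet2*-KO above WT at 10 min (log2 0.10, adjusted p = 2.4e-04) and below it at 40 min (-0.16, adjusted p = 4.4e-07).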

How the results depend on the processing

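The call counts by EU time and over all times, per ERCC read and as share of gene reads, stayed within 1.5 times under the alternatives run, apart from those given next. For the change of the difference from 10 to 40 min, 10 genes fell with TMM and 11 with DESeq2, in place of 6, and leaving out 1 library at a time gave 3 (without WT at 40 min replicate 2) to 8. For *Tet2*-KO at 40 against 10 min, 7 genes were lower with TMM in place of 11. TMM and DESeq2 move the median of all genes to about 0. The median log2 ratio of rates was 0.17 from 10 and 20 min and 0.96 from 20 and 40 min, in place of 0.65, and the cause was not tested. Replicate numbers did not pair the libraries, and with the replicate block 16 genes were higher and 11 lower as share of gene reads, as without it, and the same 4 pair ratios were called (largest adjusted p = 0.047, exact permutation test that swapped genotypes within each pair).

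Leaving out 1 library at a time moved *Rybp* over *Yaf2* between -0.028 and 0.039, *Bmi1* over *Pcgf2* between 0.18 and 0.34 and *Bcor* over *Bcorl1* between -0.11 and -0.062. *Bmi1* over *Pcgf2* was then called without WT at 10 min replicate 2 (adjusted p = 0.006) and without *Tet2*-KO at 20 min replicate 1 (0.024), and *Bcor* over *Bcorl1* without WT at 10 min replicate 1 (0.026), all by the exact permutation test.

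Over 20 and 40 min, an alternative chosen after seeing the data, 11 in place of 4 pair ratios were called. *Rnf2* over *Ring1* was then at 0.61, *Ezh2* over *Ezh1* at -0.15, *Bmi1* over *Pcgf2* at 0.25, *Cbx7* over *Cbx2* at -0.30, *Bcor* over *Bcorl1* at -0.12, *Mtf2* over *Phf19* at -0.56 and *Jarid2* over *Mtf2* at -0.079, while *Rybp* over *Yaf2* was at -0.067 and not called. The cause was not tested.

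Uncalled genes near 0 changed sign. Per ERCC read over 20 and 40 min, *Pcgf1* was at -0.095. As share of gene reads, *Bmi1*, *Rybp*, *Yaf2*, *Fbrs* and *Rbbp4* were at 0.038, 0.018, 0.0048, 0.018 and 0.0012 with TMM, the first 4 at 0.033, 0.013, 0.00024 and 0.013 with DESeq2, and *Bmi1* at 0.071 over 20 and 40 min. For the change from 10 to 40 min, *Rnf2*, *Pcgf3*, *Phc3*, *Yaf2* and *Bcorl1* were at -0.034, -0.052, -0.056, -0.024 and -0.032 with TMM and at -0.041, -0.059, -0.063, -0.031 and -0.039 with DESeq2. Leaving out 1 library gave ranges of -0.076 to 0.092 for *Bmi1* and -0.063 to 0.0074 for *Yaf2* in the mean difference. In the change from 10 to 40 min the ranges were -0.0083 to 0.054 for *Rnf2*, -0.22 to 0.052 for *Pcgf1*, -0.023 to 0.043 for *Pcgf3*, -0.10 to 0.40 for *Bmi1*, -0.020 to 0.029 for *Phc3*, -0.094 to 0.12 for *Yaf2*, -0.070 to 0.011 for *Bcor*, -0.0077 to 0.063 for *Bcorl1*, -0.053 to 0.73 for *Phf19* and -0.088 to 0.10 for *Epop*. *Ring1*, *Phf19*, *Cbx2*, *Bmi1* and *Pcgf1* have the lowest counts of the tested genes together with *Scml2*, and their values have the widest errors.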
